A study of Mus musculus with 6 samples.

Results

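Thymic plasmacytoid dendritic cells (pDCs) that carried yellow-green fluorescent microspheres, called YG+ pDCs, were compared with thymic pDCs of mice given phosphate-buffered saline (PBS). The comparison rests on the 4 libraries whose titles name these cells, 2 of each kind, out of 6 in the series. The other 2 libraries were Sirpa+ DCs (a conventional DC subset gated on high CD11c) of PBS mice. They entered the filter on low counts, the scaling and the estimate of spread, and are given beside a few values. All mice were wild type, and both pDC groups were sorted as CD11c low, B220+ cells. The YG+ pDCs came from mice with MC38 tumours (a mouse colon carcinoma line) under the skin. Microspheres went into these tumours on day 12 of growth, and the thymic cells were isolated 2 days afterwards, 2 weeks in all per the labels. The PBS pDCs came from mice treated with PBS, also at 2 weeks, and the labels do not say whether these mice bore tumours. Tumour, microspheres and the selection of fluorescent cells therefore cannot be told apart in this comparison. Strain, sex, age and whether a library is 1 mouse or a pool are not stated, so a p-value here reflects how far these samples scatter, which could be of technical origin.

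pDCs are dendritic cells that sense viral nucleic acids through endosomal Toll-like receptors and release type I interferon. Their state depends on the transcription factor TCF4, and they display SIGLEC-H and BST2 at the surface. The chemokine receptor CCR9 guides them into the thymus, where they can carry antigen from the periphery and take part in the deletion of self-reactive thymocytes. On maturation, DCs lower uptake, reorganise actin with fascin, and raise CCR7 and costimulatory molecules.

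Depth differed between the libraries and bears on every value. Gene counts totalled 713966 and 565406 in YG+ pDC 1 and 2, and 177844 and 413846 in PBS pDC 1 and 2. PBS pDC 1 also had the smallest share of uniquely placed reads in genes, 0.842% (95% Wilson interval 0.838% to 0.846%), against 2.13% to 3.36% in the other 3 libraries. Across genes, which are not independent replicates, the correlation of log2 values was 0.934 between the YG+ pDC libraries and 0.726 between the PBS pDC libraries. PBS pDC 2 correlated with the YG+ pDC libraries at 0.863 and 0.897, above its correlation with its own partner. Levels below are CPM, read counts scaled to the size of each library, always in the order of library 1 and library 2. A count of 0 allowed up to 4.04 and 5.16 CPM in the YG+ pDC libraries and 18.4 and 6.67 CPM in the PBS pDC libraries, taking 3 counts as the limit, which covers counting error only. The label "pDC" was met by the markers in all 4 libraries. Siglech was 643 and 941 CPM in YG+ pDCs against 1016 and 891 CPM in PBS pDCs, while it was 44.7 and 42.1 CPM in Sirpa+ DCs.

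No gene passed a 5% false discovery rate between YG+ pDCs and PBS pDCs. Of 8141 genes tested, edgeR's quasi-likelihood test called 0 (0.0%), and its smallest adjusted p was 0.235. At an unadjusted p under 0.05 it placed 382 genes (4.69%) higher and 547 genes (6.72%) lower in YG+ pDCs. limma-voom called 0 genes, and DESeq2 called 45 (0.553%), of which 13 were higher and 32 lower. Both YG+ pDC libraries lay above both PBS pDC libraries for 2154 genes (26.5%) and below both for 1573 (19.3%). Against PBS pDC 2 alone, these shares were 40.3% above and 36.1% below. The median log2 difference over all genes tested was 0.08. Single libraries carried much weight: edgeR called 857 genes without PBS pDC 2, 14 without YG+ pDC 2, 3 without PBS pDC 1 and 0 without YG+ pDC 1. Each of these fits left 1 library in a group and tested 8746 to 9494 genes, other sets than the 8141. The differences described below therefore failed correction for multiple tests, and each is given as its values in the 4 libraries.

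The genes with the smallest p among those higher in YG+ pDCs included Anxa3, Slco5a1, C3, Tgfbi, Tbc1d4 and Fscn1. Each of them was higher still in both PBS Sirpa+ DC libraries. These held 215 and 253 CPM of Anxa3, 179 and 165 of Slco5a1, and 561 and 869 of C3. For Tgfbi they held 662 and 1194 CPM, for Tbc1d4 536 and 570, and for Fscn1 2713 and 1998. Cacnb3, Lad1, Arhgap31, Mmp25, Stab1, Adcy6 and Csf1r, given further below, were also higher there than in either YG+ pDC library. Bcl9, also among the 15 of smallest p, went the other way. It was 12.2 and 15.3 CPM in the Sirpa+ DCs against 40.5 and 31.0 CPM in the YG+ pDCs, and has a gene on the opposite strand. Anxa3, an annexin that binds membranes in the presence of calcium, was 35.1 and 43.0 CPM in YG+ pDCs but 0 in both PBS pDC libraries. Its mean was at least 7.98-fold higher against a limit of 3 counts over both PBS pDC libraries. The YG+ pDC libraries lay near each other. Slco5a1, a solute carrier gene, was 28.3 and 27.5 CPM against 0 and 0, at least 5.71-fold higher. In PBS pDC 1 a count of 0 still allows up to 18.4 CPM, so at these levels the zero of the deeper PBS pDC 2 carries more weight.

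C3, the central component of the complement cascade (chromosome 17, 57203970 to 57228136, minus strand), was 356 and 144 CPM in YG+ pDCs, and in PBS pDCs 12.2 and 31.1 CPM. The log2 difference was 3.35 ± 0.64 (SE; edgeR adjusted p = 0.235). The leading genes were chosen among those without overlap of the groups, so that separation is no result. The YG+ pDC libraries themselves lay far apart in C3, with a mean of 250.2 ± 149.6 CPM (SD, n = 2). Tgfbi, a matrix protein gene that TGF-beta induces, was 94.4 and 75.7 CPM against 12.2 and 6.67 CPM, a log2 difference of 3.30 ± 0.65 (SE; edgeR adjusted p = 0.235). Tbc1d4, which encodes a Rab GTPase activator of vesicle traffic, was 214 and 138 CPM against 18.4 and 35.6 CPM, a log2 difference of 2.58 ± 0.51 (SE; edgeR adjusted p = 0.235). That neither gene's libraries overlapped between the groups follows from the same choice.

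Fscn1, which encodes the actin-bundling protein fascin of mature DCs (chromosome 5, 142960343 to 142973185, plus strand), was the most abundant of the leading genes. It was 724 and 550.3 CPM in YG+ pDCs against 165 and 124 CPM in PBS pDCs, from 537 and 320 counts against 27 and 56. The means were 637 ± 123 and 145 ± 28.9 CPM (SD, n = 2), a log2 difference of 2.15 ± 0.46 (SE; edgeR adjusted p = 0.253). Both PBS pDC libraries were low, the deeper one lower than the shallow one. Without PBS pDC 1 the log2 difference was 2.35. Cacnb3, a calcium channel subunit gene of mature DCs, was 59.3 and 73.9 CPM against 12.2 and 2.22 CPM, and Lad1 41.8 and 39.6 CPM against 0 and 2.22 CPM. Arhgap31, a GTPase activator for CDC42 and RAC1, was 60.7 and 58.5 CPM against 6.12 and 8.89 CPM. Other leaders have a gene on the opposite strand, so their values are uncertain. They include Mmp25 (43.1 and 36.1 CPM against 0 and 0) and Stab1 (76.9 and 32.7 against 0 and 0). Adcy6 (63.4 and 27.5 against 0 and 0) and Csf1r (177 and 96.3 against 24.5 and 11.1) are also among them.

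**Figure D1:**
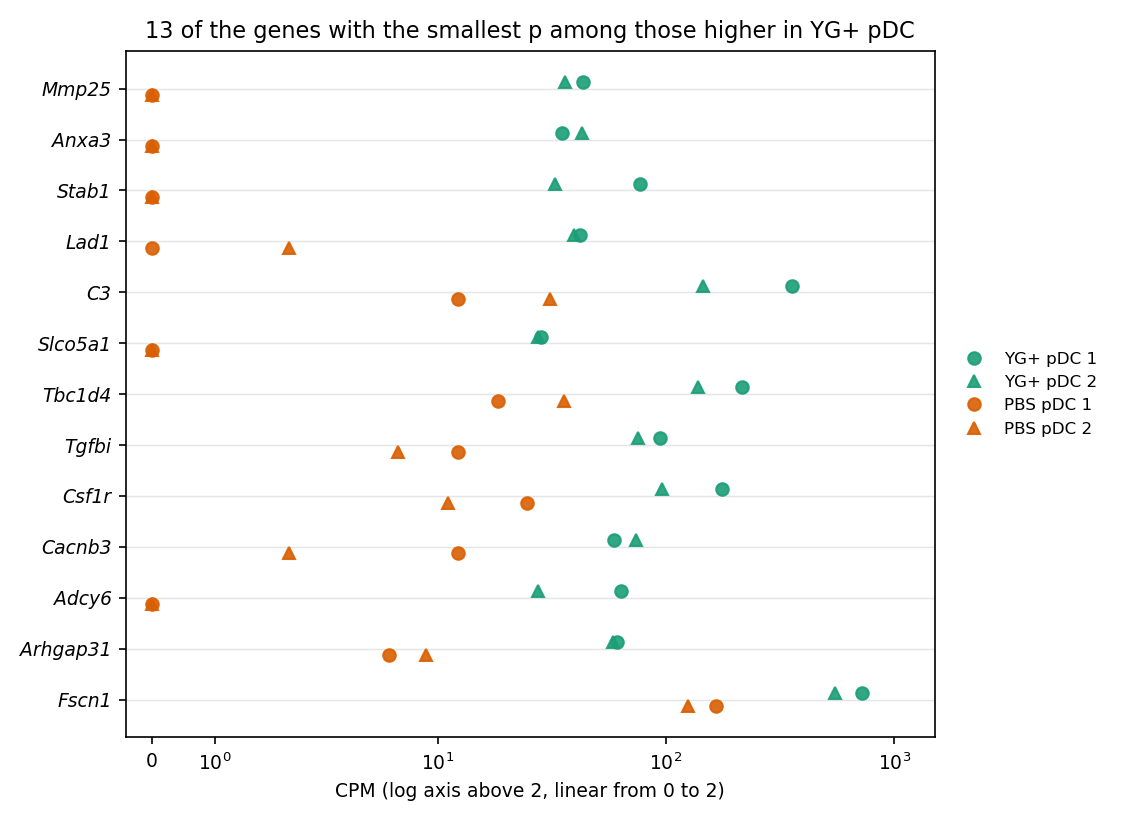
CPM in each pDC library (circles, library 1; triangles, library 2) for 13 of the genes with the smallest p among those higher in YG+ pDCs, on an axis that is linear from 0 to 2 and logarithmic above. For every gene the YG+ pDC points lie to the right of the PBS pDC points, as the choice of genes without overlap requires, and Mmp25, Anxa3, Stab1, Slco5a1 and Adcy6 are at 0 in both PBS pDC libraries.

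For 2 of the leading genes without a gene on the opposite strand, the promoter holds the letters of a TATA box, and these sequences are shown for that match, since Fscn1 and C3 do not have the largest differences among the leaders. The promoters run from 250 bases before to 50 after the start site in RefSeq on GRCm38.p6, and the capitals mark TATAAA and, in Fscn1, the cAMP response element TGACGTCA.
Fscn1, chr5:142960105-142960404, plus strand: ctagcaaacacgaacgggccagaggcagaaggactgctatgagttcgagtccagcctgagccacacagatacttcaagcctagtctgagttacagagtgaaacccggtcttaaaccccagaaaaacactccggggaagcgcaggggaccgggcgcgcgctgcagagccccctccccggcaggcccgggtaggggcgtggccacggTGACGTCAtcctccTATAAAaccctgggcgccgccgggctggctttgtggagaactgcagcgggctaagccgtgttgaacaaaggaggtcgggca
C3, chr17:57228087-57228386, minus strand: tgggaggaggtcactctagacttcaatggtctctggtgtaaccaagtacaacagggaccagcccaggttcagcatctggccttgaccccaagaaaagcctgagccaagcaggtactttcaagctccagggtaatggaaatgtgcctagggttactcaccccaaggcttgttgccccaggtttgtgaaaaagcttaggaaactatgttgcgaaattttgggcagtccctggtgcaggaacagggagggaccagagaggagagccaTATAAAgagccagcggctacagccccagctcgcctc
The motifs searched, on both strands, were the TATA box TATAAA, the cAMP response element TGACGTCA, the AP-1 site TGAGTCA, the PU.1 core GAGGAA and the E-protein box CAGGTG, and no matches overlapped in the promoters printed. TATAAA was in 2 of the 11 promoters that the table holds for 10 of the 15 leading higher genes without an opposite gene, and in 7.06% of the promoters of genes tested. TGACGTCA was in 1 of the 11 and in 3.15% of the promoters of genes tested. A match is a description of letters, and these counts are too small to set against those shares.

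Several genes that define pDCs overlapped between the groups. Over all genes tested, 26.5% lay above both PBS pDC libraries and 19.3% below, with a median log2 difference of 0.08. Of 14 surface protein genes tested, 0 lay above both PBS pDC libraries and 3 below, with a median log2 difference of -0.31. The Siglech values given above overlapped between the groups, with a log2 difference of -0.27 ± 0.41 (SE; edgeR adjusted p = 0.843). Bst2, which encodes a surface protein that tethers virions, was 711 and 913 CPM in YG+ pDCs against 1678 and 1009 CPM in PBS pDCs, a log2 difference of -0.72 ± 0.43 (SE; edgeR adjusted p = 0.565). Its highest value was in PBS pDC 1, and without that library the log2 difference was -0.33. Ly6c2, a surface antigen gene of pDCs and monocytes, was 193 and 239 CPM against 606 and 307 CPM, again with PBS pDC 1 highest. Ccr9, which has a gene on the opposite strand, was 611 and 906 CPM against 673 and 843 CPM, so the PBS pDC values lay inside the range of the YG+ pDCs.

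Transcription factors of the lineage were abundant in both groups. Tcf4 was 454 and 626 CPM in YG+ pDCs against 361 and 682 CPM in PBS pDCs, a difference smaller than the spread in either group. Irf8, which pDCs and type 1 conventional DCs both need, was 1072 and 1498 CPM against 1151 and 1612 CPM. Of 13 factors tested, 4 lay above both PBS pDC libraries and 0 below, with a median log2 difference of 0.29, which was -0.04 without PBS pDC 1. Bcor, a corepressor gene, had the smallest p of the list, at 72.8 and 87.7 CPM against 36.7 and 42.2 CPM (log2 difference 0.99 ± 0.46 SE; edgeR adjusted p = 0.442). Mef2c was 267 and 316 CPM against 129 and 258 CPM. Among 18 intracellular and secreted proteins tested, 0 lay above and 6 below, with a median of -0.32. Of the 7 with no gene on the opposite strand, 0 lay above and 1 below, with a median of -0.12. Smim5, which has an opposite gene, was 72.8 and 105 CPM against 312 and 160.1 CPM, and Mzb1, an endoplasmic reticulum chaperone gene with none, 109 and 89.4 CPM against 159 and 158 CPM. A smaller share of pDCs in a sort and less of these RNAs per cell cannot be told apart in bulk libraries.

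Genes of the sorting gate varied within the PBS pDC group. Ptprc, whose B220 isoform was used in the gate, was 783 and 942 CPM in YG+ pDCs, but 178 CPM in PBS pDC 1 and 972 CPM in PBS pDC 2. PBS pDC 1 alone stood apart, on 29 counts against 437 in its partner. Itgax, which encodes CD11c, was 175 and 249 CPM against 153 and 256 CPM, and Sirpa 376 and 294 CPM against 190 and 307 CPM, both with overlap of the groups.

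**Figure D2:**
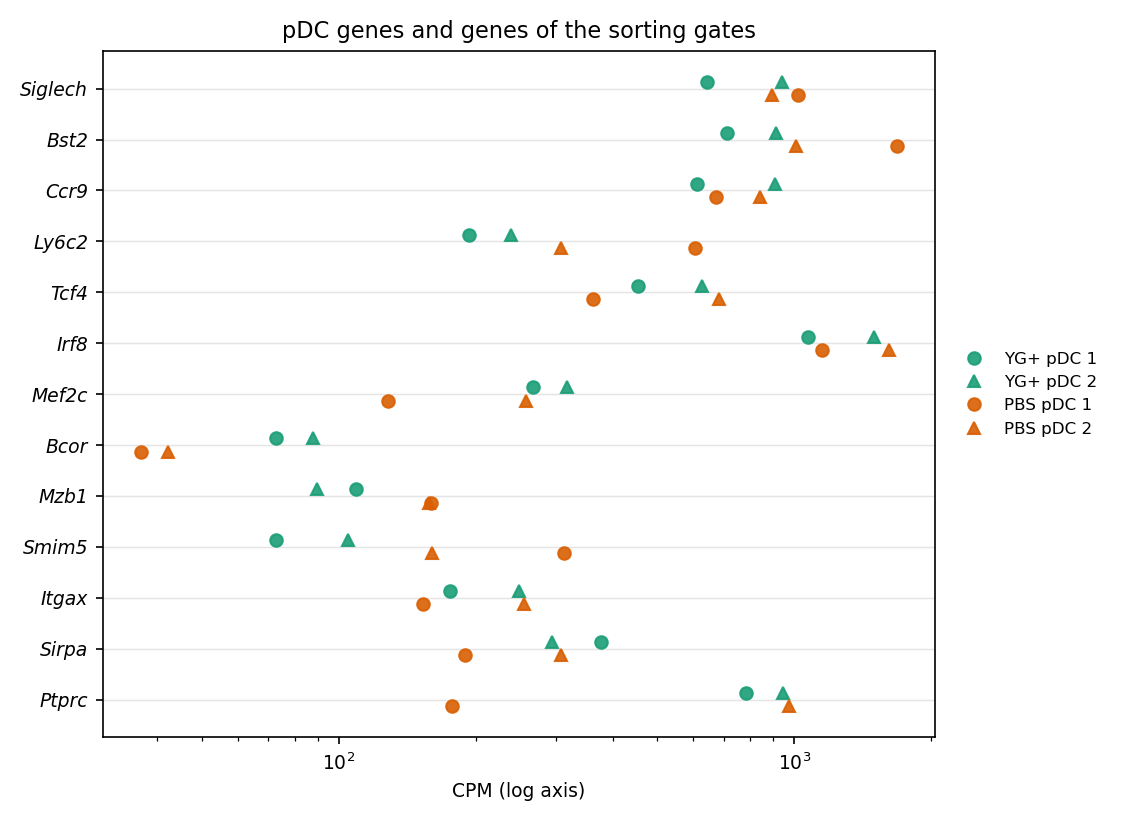
CPM on a logarithmic axis in each pDC library for pDC genes and genes of the sorting gates, with circles for library 1 and triangles for library 2. Siglech, Ccr9, Tcf4, Irf8, Itgax, Sirpa and Ptprc overlap between the groups, and Ptprc shows PBS pDC 1 at 178 CPM, far to the left of the other 3 libraries.

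Monocyte and macrophage genes had the largest median difference of all lists examined. Of 17 members tested, 12 lay above both PBS pDC libraries and 0 below, and the median log2 difference was 2.44 (1.99 once genes without a count in either group took their bound). Over all genes tested, the shares for this and the later lists were 26.5% above and 19.3% below. At an unadjusted edgeR p under 0.05, 12 members were higher and 0 lower, beside 4.69% and 6.72% of all genes tested. Against PBS pDC 2 alone, 13 lay above and 0 below, beside 40.3% and 36.1% of all genes tested. Lyz2, the lysozyme gene of macrophages and neutrophils, was 537 and 220.1 CPM in YG+ pDCs against 129 and 26.7 CPM in PBS pDCs, although it shares sequence with its neighbour Lyz1. Apoe, a lipid carrier that macrophages secrete, was 2666 and 1090 CPM against 643 and 547 CPM, a log2 difference of 1.66 ± 0.53 (SE; edgeR adjusted p = 0.315). The complement gene C1qa was 162 and 39.6 CPM against 12.2 and 4.45 CPM (log2 difference 3.85 ± 0.91 SE; edgeR adjusted p = 0.315). In each of these genes YG+ pDC 1 stood highest, and the gap in CPM between the YG+ pDC libraries was wider than that between the PBS pDC libraries.

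The summed level of the 23 macrophage genes in the files was 5108 and 2174 CPM in YG+ pDCs against 1488 and 960 CPM in PBS pDCs, and 7226 and 11487 CPM in Sirpa+ DCs. Of these genes, 8 were at 0 in both PBS pDC libraries, among them Mertk, Fcgr1, Fcgr3 and Timd4, and Trem2 was at 0 in all 4 pDC libraries. Mertk, a receptor kinase for apoptotic cells that marks macrophages, was 68.8 and 8.60 CPM in YG+ pDCs, and it has a gene on the opposite strand. Vcam1, an adhesion molecule of macrophages and endothelium that also has an opposite gene, was 166 and 44.7 CPM against 12.2 and 20.01 CPM. The summed levels of the YG+ pDC libraries differed more from each other than YG+ pDC 2 differed from PBS pDC 1, and the part of macrophage RNA in the other differences was not tested.

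Mature or migratory DC genes had the largest share of members above the PBS pDCs among lists with more than 2 genes tested. Of 27 tested, 21 lay above both PBS pDC libraries and 0 below, with a median log2 difference of 1.38 (1.11 with 5 members at 0 set to their bound). In all, 12 were higher and 0 lower at an unadjusted edgeR p under 0.05, beside 4.69% and 6.72% of all genes tested. Against PBS pDC 2 alone, 24 lay above and 1 below, beside 40.3% and 36.1% of all genes tested. Restricted to the 21 members with no gene on the opposite strand, 17 lay above and 0 below. Ccl22, a chemokine that attracts CCR4+ T cells, was 433 and 332 CPM in YG+ pDCs against 135 and 158 CPM in PBS pDCs, a log2 difference of 1.38 ± 0.42 (SE; edgeR adjusted p = 0.315). Ccr7 itself was 487 and 323 CPM against 361 and 247 CPM, with overlap (log2 difference 0.43 ± 0.44 SE; edgeR adjusted p = 0.756). The summed level of the 31 genes was 3847 and 3016 CPM in YG+ pDCs against 1647 and 1687 CPM in PBS pDCs, and 10808 and 9473 CPM in Sirpa+ DCs.

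Conventional DC markers differed unevenly. Of 16 type 2 genes tested, 8 lay above and 0 below, with a median log2 difference of 1.00. Tmem176a and Tmem176b, neighbouring membrane protein genes of type 2 DCs that each have a gene on the opposite strand, were 40.5 and 39.6 CPM against 6.12 and 0, and 99.8 and 55.0 CPM against 18.4 and 22.2 CPM. Sirpa, the defining gene of that subset, overlapped as given above. Of 9 genes shared by conventional DCs, 3 lay above and 0 below, with a median of 0.03. Of 10 type 1 genes tested, 6 lay above and 1 below, with a median of 0.52. Their summed level was 1178 and 1257 CPM in YG+ pDCs against 2045 and 1109 CPM in PBS pDCs, so the sum did not follow the median. Snx22, a member with a gene on the opposite strand, made up 1273.5 CPM of the sum in PBS pDC 1, which rests in part on it. The part of conventional DCs in the differences was not tested.

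Most NF-kB and inflammation genes, but fewer chemokine and cytokine genes, were above the PBS pDCs. Of 22 NF-kB and inflammation genes tested, 16 lay above and 1 below, with a median log2 difference of 0.60. Tnfaip2 was 63.4 and 36.1 CPM against 0 and 6.67 CPM, and has a gene on the opposite strand. Ptgs2, which encodes an inducible prostaglandin synthase, was 22.9 and 37.8 CPM against 6.12 and 0 CPM, the 6.12 being 1 count. Rel, an NF-kB subunit gene with far more counts, was 475 and 414 CPM against 178 and 238 CPM, a log2 difference of 1.08 ± 0.41 (SE; edgeR adjusted p = 0.358). Of 13 chemokine and cytokine genes tested, 6 lay above and 1 below, with a median of 1.27. Ccl5 was 21.6 and 41.3 CPM against 6.12 and 6.67 CPM, and Il12b, which encodes a subunit of interleukin 12, 10.8 and 17.2 CPM against 0 and 0. Ccl4 was 146 and 236 CPM against 686 and 189 CPM, with PBS pDC 1 alone high.

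Immediate early genes were another group with no member below the PBS pDCs. Of 21 tested, 13 lay above both PBS pDC libraries, and the median log2 difference was 0.44. Nr4a3, a nuclear receptor gene induced by antigen and Toll-like receptor signals, was 325 and 382 CPM against 98.0 and 156 CPM, a log2 difference of 1.44 ± 0.44 (SE; edgeR adjusted p = 0.315). Its relative Nr4a2 was 63.4 and 65.3 CPM against 18.4 and 28.9 CPM. Egr1 was 183 and 108 CPM against 36.7 and 73.4 CPM, and Atf3, which has a gene on the opposite strand, 90.3 and 48.1 CPM against 6.12 and 20.01 CPM.

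Receptors and organelles of uptake, the route by which a microsphere enters a cell, were a mixed group. Of 23 uptake and engulfment genes tested, 12 lay above and 2 below, with a median log2 difference of 0.90. Itgb5, an integrin subunit that binds apoptotic cells, was 64.7 and 13.8 CPM against 6.12 and 2.22 CPM, and Fcgr3, an Fc receptor gene, 27.0 and 12.0 CPM against 0 and 0. Both were highest in YG+ pDC 1. Of the uptake genes, Fcgr3, Fcgr1, Mertk, Timd4 and Marco are also in the macrophage list. Other lists share members too, such as Rel, Ccl22 and Apoe, so the counts of the lists are not independent. Rac2, a GTPase gene of engulfment with high counts in every library, was 515 and 536 CPM against 912 and 734 CPM, below the PBS pDCs (log2 difference -0.64 ± 0.41 SE; edgeR adjusted p = 0.587).

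Of 27 lysosome genes tested, 11 lay above and 2 below, with a median of 0.29. Ctsd, a lysosomal protease gene, was 434 and 284 CPM against 129 and 75.6 CPM, a log2 difference of 1.86 ± 0.50 (SE; edgeR adjusted p = 0.315). Lamp2, a lysosomal membrane protein gene, was 217 and 165 CPM against 67.3 and 102 CPM. The summed level of the 29 lysosome genes was nearly equal between the groups, at 9514 and 9480 CPM against 9539 and 9494 CPM. That sum holds Ctsa, a lysosomal carboxypeptidase gene with a gene on the opposite strand, at 616 and 877 CPM against 3410 and 1269 CPM. PBS pDC 1 was far above the rest in Ctsa, so the near equality of its sum rests in part on this gene.

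Lipid genes followed a like pattern. Of 23 cholesterol and lipid genes tested, 12 lay above and 2 below, with a median log2 difference of 0.50. Against PBS pDC 2 alone, 20 lay above and 3 below, beside 40.3% and 36.1% of all genes tested. Besides Apoe, the scavenger receptor Cd36 was 31.0 and 22.4 CPM against 0 and 2.22 CPM. Fabp5, a fatty acid binding protein gene, was 31.0 and 27.5 CPM against 0 and 6.67 CPM. Nr1h3, which encodes the sterol receptor LXR alpha, was 27.0 and 17.2 CPM against 6.12 and 0 CPM, and has a gene on the opposite strand. These 3 genes rest on 0 to 3 counts in each PBS pDC library.

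**Figure D3:**
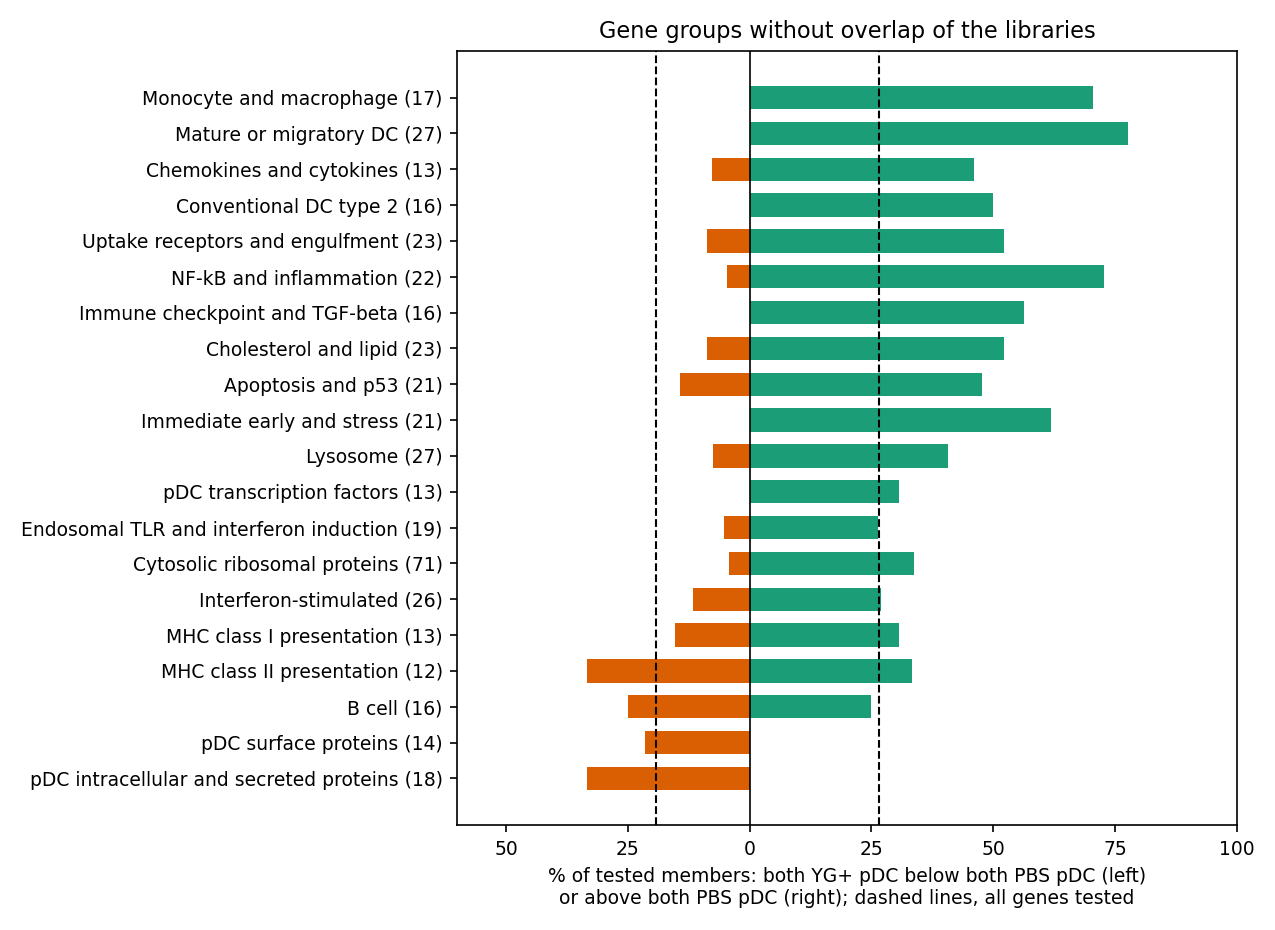
Percentage of tested members of each gene group (number tested in brackets) whose values in both YG+ pDC libraries were above (right, green) or below (left, orange) both PBS pDC libraries. Dashed lines mark the same percentages over all genes tested, 26.5% and 19.3%, and the mature DC, NF-kB and macrophage bars reach farthest to the right.

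For the functions pDCs are best known for, the share of genes above the PBS pDCs was near the 26.5% of all genes tested. The share below was under the 19.3% of all genes tested. Of 19 genes of endosomal Toll-like receptors and interferon induction, 5 lay above and 1 below, with a median log2 difference of 0.28. Myd88, the adaptor of these receptors, was 25.6 and 17.2 CPM in YG+ pDCs against 67.3 and 64.5 CPM in PBS pDCs, and has a gene on the opposite strand. Its downstream ligase Traf6 was 94.4 and 107 CPM against 12.2 and 44.5 CPM, and so lay on the other side. Of 26 interferon-stimulated genes tested, 7 lay above and 3 below, with a median of 0.08. Against PBS pDC 2 alone, 8 of them lay above and 12 below, beside 40.3% and 36.1% of all genes tested. Without PBS pDC 1 their median was -0.14. Of the 19 Toll-like receptor and interferon induction genes, 6 lay above PBS pDC 2 and 6 below it. Isg15, a ubiquitin-like protein gene induced by interferon, was 31.0 and 18.9 CPM against 6.12 and 8.89 CPM. The antiviral gene Mx1 was 48.5 and 31.0 CPM against 91.8 and 64.5 CPM, in the opposite direction.

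Antigen presentation genes were split. Of 12 MHC class II genes tested, 4 lay above and 4 below, with a median of -0.04, and of 13 MHC class I genes 4 lay above and 2 below, with a median of 0.00. Cd74, the invariant chain of class II molecules, was 5819 and 5800 CPM against 7127 and 5020 CPM, so the YG+ pDC values lay between those of the PBS pDCs. Ctss, the protease that degrades the invariant chain, was 570.3 and 450.5 CPM against 226 and 267 CPM (log2 difference 1.04 ± 0.44 SE; edgeR adjusted p = 0.407).

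Of 16 immune checkpoint and TGF-beta genes tested, 9 lay above and 0 below, with a median of 0.53. Tgfbr1, a TGF-beta receptor gene, was 307 and 311 CPM against 104 and 196 CPM, and Icosl, the ligand of ICOS, 52.6 and 58.5 CPM against 36.7 and 20.01 CPM. Of 21 apoptosis and p53 genes, 10 lay above and 3 below, with a median of 0.55. Pmaip1, which encodes the BH3-only protein NOXA, was 170 and 132 CPM against 36.7 and 75.6 CPM. Of 18 cell cycle genes, 6 lay above and 2 below, with a median of 0.14. Of 71 cytosolic ribosomal protein genes, 24 lay above and 3 below, with a median of 0.17. The shares over all genes tested were 26.5% above and 19.3% below. Against PBS pDC 2 alone, 55 ribosomal protein genes lay above and 4 below, beside 40.3% and 36.1% of all genes tested. Their median was 0.33 without PBS pDC 1.

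Markers of other thymic cells were compared because they could mix into a sort. The summed B cell markers were 1382 and 1212 CPM in YG+ pDCs against 1378 and 1523 CPM in PBS pDCs, with 4 of 16 tested above and 4 below. Fcrla, a B cell and pDC gene, was 120 and 127 CPM against 269 and 204 CPM, while Fcer2a, a marker of mature B cells, was 83.6 and 73.9 CPM against 36.7 and 28.9 CPM. The summed T cell and thymocyte markers were 980 and 1166 CPM against 1555 and 1107 CPM, and of 9 tested 3 lay above and 3 below. Cd247, which has a gene on the opposite strand, made up 851 CPM of the sum in PBS pDC 1. Cd3g, Ptcra and Themis were at 0 in all 4 pDC libraries. Lck was 22.9 and 31.0 CPM against 67.3 and 51.1 CPM. NK cell markers summed to 93.0 and 72.2 CPM against 208 and 140 CPM, and neutrophil markers to 93.0 and 92.9 CPM against 49.0 and 13.3 CPM. Thymic stroma markers summed to 340 and 387 CPM against 282 and 389 CPM, with Foxn1, Krt14, Col1a1, Col1a2 and Col3a1 at 0 in all 4 libraries. Their part in the results was not tested.

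**Figure D4:**
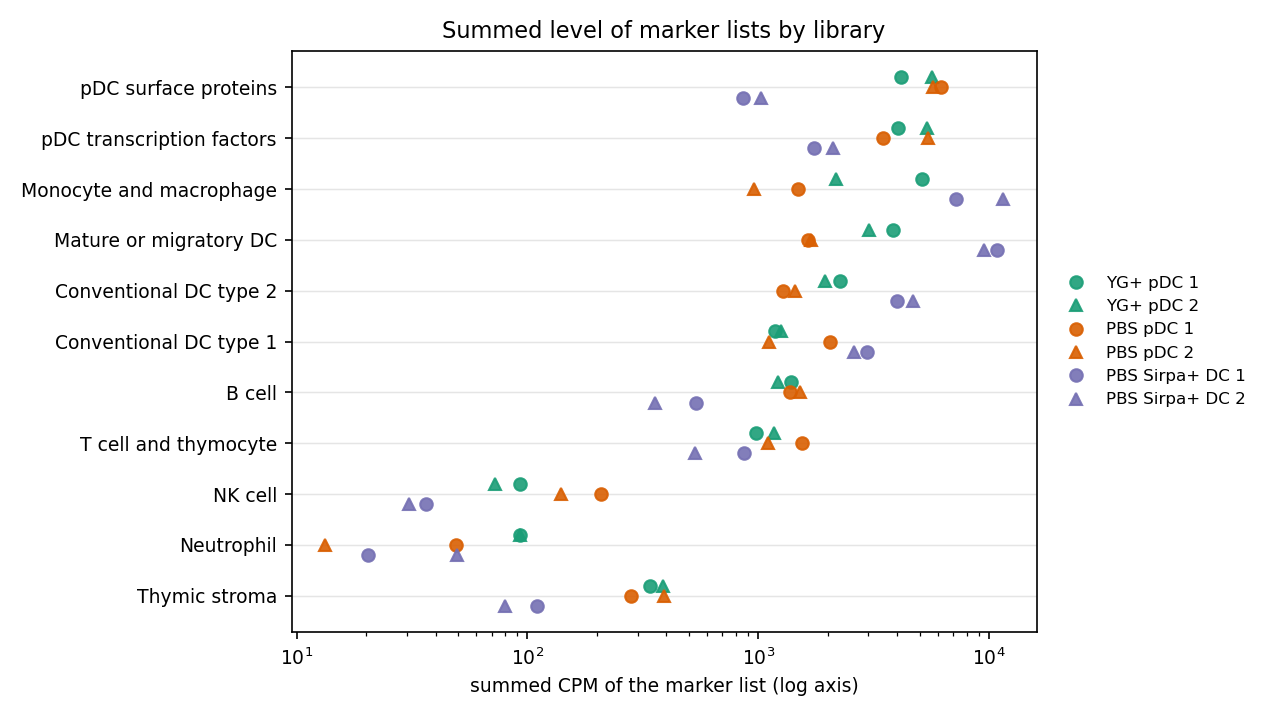
Summed CPM of each marker list on a logarithmic axis, by library, with PBS Sirpa+ DC libraries added for scale. The macrophage, mature DC and type 2 conventional DC sums of the YG+ pDCs lie between those of the PBS pDCs and the Sirpa+ DCs, whereas the pDC, B cell and stroma sums lie at or near those of the PBS pDCs.

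Most genes lower in YG+ pDCs at an unadjusted p under 0.05 had a gene on the opposite strand. Of these 547 genes, 448 (81.9%) had an annotated gene on the opposite strand, against 149 of the 382 higher genes (39.0%) and 49.3% of all genes tested. The share of genes lower at this p was 2.08% where no gene lay on the opposite strand, and 4.50% when those genes were filtered, scaled and fitted on their own. It was 9.58% where up to 20% of the exon bases lay under an opposite exon, 26.2% at 20% to 50% and 34.9% above 50%. The shares of genes higher in the same classes, in the fit of all genes, were 5.71%, 3.73%, 1.00% and 0.0%. How the counting program treated strand is not given in the sources that were used.

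PBS pDC 1 carried most of these lower values. In 523 of the 547 genes PBS pDC 1 was the higher of the PBS pDC libraries. Of 546 that could be refitted without it, 166 stayed under an unadjusted p of 0.05, and their median log2 difference went from -1.68 to -0.87. Of the 382 higher genes, 259 stayed under that p, and their median went from 1.72 to 1.59. In genes with no opposite gene, the log2 ratio of counts in PBS pDC 1 to those in PBS pDC 2 had a median of -1.78. Above 50% of exon length under an opposite exon, it was -0.05, and the ratio of YG+ pDC 1 to 2 went from 0.36 to 0.06. Counts in the latter class were 367, 353, 316 and 345 per 1000000 uniquely placed reads in YG+ pDC 1, YG+ pDC 2, PBS pDC 1 and PBS pDC 2. In genes with no opposite gene they were 14624, 11131, 2811 and 9065. Counts in the overlapping class stayed near 1 level per read placed, while those of genes with no opposite gene were lowest in PBS pDC 1.

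**Figure D5:**
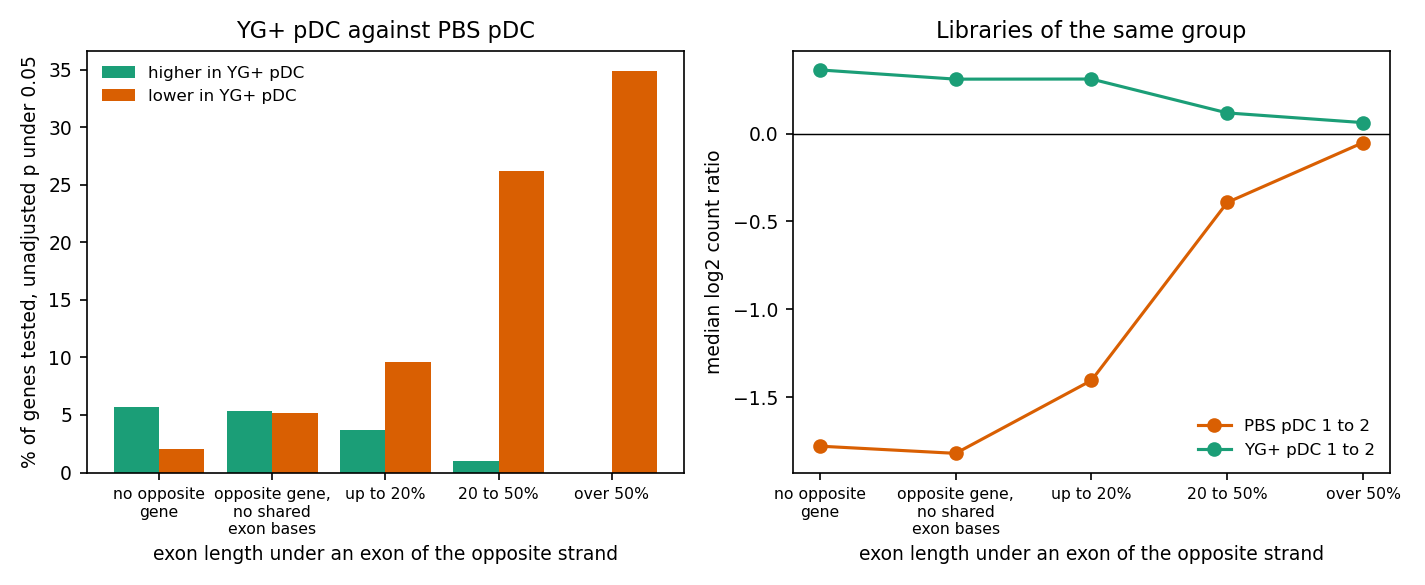
Left, percentage of genes tested with an unadjusted p under 0.05, higher or lower in YG+ pDCs, by the share of exon bases that an opposite exon covers. Right, median log2 ratio of raw counts between the libraries of 1 group in the same classes: the PBS pDC ratio climbs from -1.78 to -0.05 as the overlap grows.

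Supt16 and Rpgrip1 are an overlapping pair with high counts. Supt16, a histone chaperone subunit gene (chromosome 14, 52160414 to 52197416, minus strand), has 20.98% of its exon length under Rpgrip1 (52110704 to 52163546, plus strand), a photoreceptor cilium gene that is also abundant in pDCs. Supt16 was 582 and 1034 CPM in YG+ pDCs against 5308 and 2049.6 CPM in PBS pDCs, and its raw counts, also higher in the PBS pDCs, were 432, 601, 867 and 922. Rpgrip1 was 403 and 667 CPM against 1231 and 647 CPM. It was 670 and 388.5 CPM in the PBS Sirpa+ DCs, so its abundance was not particular to pDCs. Other leading lower genes with an opposite gene were Bsn (74.2 and 96.3 CPM against 686 and 247 CPM), Fam149b (18.9 and 15.5 against 153 and 64.5), Spsb3 (72.8 and 96.3 against 373 and 240.1), Sfi1 (105 and 179 against 857 and 429) and Fam104a (70.1 and 72.2 against 441 and 207). In each of them PBS pDC 1 was the highest of the 4 libraries.

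Of 4078 genes tested without an opposite gene, 85 were lower in YG+ pDCs at an unadjusted p under 0.05, and 233 higher. Filtered, scaled and fitted on their own, 4202 such genes gave 189 lower and 203 higher, so this imbalance depended on the scaling and the genes fitted. Tcstv1, a gene of the early embryo with near-identical copies, which makes its count uncertain, had the smallest p of all lower genes. It was 63.4 and 58.5 CPM against 398 and 198 CPM, a log2 difference of -2.25 ± 0.46 (SE; edgeR adjusted p = 0.235). Sec22c, a vesicle traffic gene, was 56.6 and 79.1 CPM against 294 and 180.1 CPM, and C2cd2 123 and 162 CPM against 667 and 349 CPM. Gzmc, a granzyme gene in a cluster of relatives, was 8.09 and 3.44 CPM against 73.5 and 40.0 CPM, from 6, 2, 12 and 18 counts. Yars2, a mitochondrial tyrosine tRNA ligase gene, was 8.09 and 6.88 CPM against 36.7 and 35.6 CPM, with PBS pDC libraries that were nearly equal.

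Differences that do not rest on PBS pDC 1 or on overlapping genes were sought in genes without an opposite gene, with PBS pDC 2 as the only PBS pDC library. This combination was added after the data were seen, and the lone library was assumed to vary like the other groups. It called 16 of 4844 genes (0.33%). The 11 higher genes included Fscn1, Lyz2, C1qb, C1qc, Cacnb3, C3, Tgfbi, Ctsd, Anxa3 and Tbc1d4, named after their values were seen. The 5 lower genes were Tcstv1, the predicted gene Gm13498, and Bpifa2, 2310057J18Rik and Amy1, which are described among the other observations.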

How the data were processed

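RNA was measured in sorted thymic DCs. Per the labels' protocols, a BD FACSAria III sorted the cells, TRIzol was used for RNA, and the Ovation SoLo RNA-Seq Mouse kit made libraries from 5 ng of it. The deposited values were raw read counts, 1 whole number per gene symbol. The mm10 build and bcl2fastq 2.17 are named in the submitters' processing notes. Aligner, counter and strandedness are not given in the sources that were used. The 5 summary lines of each file (97.7% to 99.5% of records) stayed out. The labels give 1 batch for all samples.

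Genes kept by filterByExpr were scaled by the TMM method and tested with edgeR 4.0.16 (glmQLFit, glmQLFTest, R 4.3.3). All 6 libraries entered a fit of 3 group means (3 residual degrees of freedom), with Benjamini-Hochberg adjustment over 8141 genes. CPM are counts over these scaled totals, per 1000000. Replicate libraries were not duplicates: chi-square over its degrees of freedom was 2.76 for the YG+ pDCs and 11.9 for the PBS pDCs. Of 23420 symbols, 23026 (98.3%) matched GENCODE M21 coordinates on GRCm38, which gave genes on the opposite strand. Named genes were the 15 with the smallest p in each direction, at a mean of 20 CPM or more and with no overlap of the groups, plus the 4 of smallest p and 2 of highest level in each list, and the gate and pDC markers Tcf4, Ccr9, Bst2, Siglech, Sirpa, Itgax and Ptprc. Not all are printed, and 1 result is not reported here. Genes ranked among those without an opposite gene, Rpgrip1 and the genes of the closing observations were added after their values were seen. The comparison and lists were chosen with earlier results of these data known, and lists are described by counts and medians without a set test. The scripts were tested on simulated data. Alternatives were other scalings and filters, DESeq2 1.42.0, limma-voom (limma 3.58.1), a fit of 4 libraries, a replicate block and each library left out. Those added after the data were seen were genes without an opposite gene, removal of Rn45s, Malat1, Tsix and Xist, a covariate for the percentage of unique reads in genes, and PBS pDC 2 alone in genes without an opposite gene. Python 3.11.15, numpy 2.4.6, pandas 2.3.3 and matplotlib 3.10.9 made the summaries and plots.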

Additional observations from a re-analysis of the deposited data

How the results depend on the processing

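Calls at a 5% false discovery rate stayed at 0 under the other scalings, a filter at 10 CPM, limma-voom, a fit of the 4 pDC libraries, removal of 4 abundant nuclear transcripts, a covariate for the percentage of unique reads in genes, and genes without an opposite gene. They came to 141 without a filter, 45 with DESeq2 and 16 in genes without an opposite gene with PBS pDC 2 alone, and to 0 to 857 with 1 library left out. Genes higher at an unadjusted p under 0.05 (382) came to 584 without a filter, 208 with DESeq2, 223 in the fit of 4 libraries and 203 in genes without an opposite gene, and to 116 to 1253 with 1 library left out. Genes lower (547) came to 828 without a filter, 189 in genes without an opposite gene, 161 with the covariate and 129 with PBS pDC 2 alone in those genes, and to 197 to 1285 with 1 library left out. Some of these fits tested other numbers of genes, such as 16777 without a filter against 8141 in the main fit. Genes higher were 4.69% of those tested in the main fit, 3.48% without a filter and 4.83% without an opposite gene. They were 2.555% with DESeq2 and 2.997% in the fit of 4 libraries. Genes lower were 6.72% in the main fit, 4.94% without a filter, 4.498% without an opposite gene and 1.98% with the covariate. Without a filter, these counts rose but these shares fell. The cause of the shifts in share was not tested.

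Among genes given with their CPM in all 4 pDC libraries, the log2 fold changes of 10 turned sign. Ccr9 was 0.025 with library totals, 0.063 without a filter, 0.042 at 10 CPM, and -0.28 to 0.27 with 1 library left out (0.27 without YG+ pDC 1, 0.21 without PBS pDC 2). Tcf4 was -0.028 with DESeq2's size factors, -0.029 with DESeq2, -0.022 in the fit of 4 libraries, -0.15 in genes without an opposite gene, -0.37 with the covariate, -0.41 with PBS pDC 2 alone in those genes, and -0.35 to 0.62 with 1 library left out. Itgax was, in the same order, -0.037, -0.038, -0.032, -0.16, -0.39, -0.34, and -0.28 to 0.51. Both were lowest without PBS pDC 1 and highest without PBS pDC 2. Irf8 was 0.13 without YG+ pDC 1, and -0.34 to 0.20 over all such omissions. Cd74 was 0.0014 with library totals, 0.016 without a filter, 0.15 with the covariate, 0.14 with PBS pDC 2 alone in genes without an opposite gene, and 0.20 without PBS pDC 1 against -0.25 without PBS pDC 2. Ptprc was -0.18 without PBS pDC 1 against 2.32 without PBS pDC 2, -0.24 with PBS pDC 2 alone in genes without an opposite gene and -0.61 with the covariate. With the covariate Rpgrip1 was 0.13, Tsix 0.31, Sirpa -0.090 and Xist -0.025. The other tested genes given with CPM in all 4 pDC libraries kept their sign under every alternative that fitted them. Among them and those 10, an adjusted p under 0.05 appeared for 30 genes in edgeR without a filter and for 16 in DESeq2. Otherwise it appeared only in fits that left 1 library in a group. The gene's direction was unchanged each time. Genes that the naming rule takes but the text does not print are not covered by this, and some of them turned sign, such as Psap (0.074, and -0.068 without PBS pDC 1). Snx22 and Cd247, given for PBS pDC 1 alone, are not covered either and turned sign with the covariate (0.20 and 0.14).

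With the sample number as a replicate block, 0 genes were called, and 370 were higher and 526 lower at an unadjusted p under 0.05. The labels do not say that equal numbers share an animal or day, and the differences of library 1 from library 2 in the YG+ and PBS pDCs correlated at -0.121 across genes, so the numbers were not taken as pairs. A crossed pairing, added after the data were seen, gave 0 calls, with 287 higher and 405 lower.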

Other observations

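PBS pDC 2 held transcripts of salivary gland secretions that were at 0 or 1 count in the other pDC libraries. Bpifa2, which encodes a parotid secretory protein, had 202 counts in PBS pDC 2 and 0 in the other 5 libraries of the series. Amy1, the salivary amylase gene, had 34 counts in PBS pDC 2 and 1 in YG+ pDC 2, and Dcpp1, a demilune and parotid protein gene, had 22 counts in PBS pDC 2 and 1 in PBS Sirpa+ DC 1. The unnamed genes 1700066N21Rik and 2310057J18Rik had 658 and 46 counts in PBS pDC 2 and 0 elsewhere, and 1700066N21Rik has a gene on the opposite strand. These genes did not pass the filter on low counts with all 6 libraries. Without PBS pDC 1, edgeR called 3 genes, all lower in YG+ pDCs, and they were 1700066N21Rik, Bpifa2 and 2310057J18Rik, so every call of that setting rests on this 1 library. The genes were looked up after their values were seen, and the source of these transcripts was not tested.

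The ribosomal precursor transcript Rn45s was 122090 and 103170 CPM in YG+ pDCs and 40206 and 72724 CPM in PBS pDCs. Tsix was 9046 and 12796 CPM in YG+ pDCs against 49604 and 12358 CPM in PBS pDCs, whereas Xist, its partner on the opposite strand, was 3353 and 3721 CPM against 2424 and 3437 CPM. PBS pDC 1 was highest in Tsix and lowest in Xist and Rn45s among the 4 libraries.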
